A study of Mus musculus with 28 samples.

Results

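The loci described here are 52 mouse genes for developmental regulators of the kind that Polycomb proteins bind in embryonic stem cells, and the question is how often they were contacted from viewpoints on other chromosomes. They were taken as a fixed list of gene names, 52 of 21631 protein-coding genes on chromosomes 1 to 19 and X. Each gene span of the mm10 assembly was extended by 50 kb on both sides and overlapping stretches were merged, which gave 44 loci on 16 chromosomes, 5.88 Mb in all. The loci were 102 to 306 kb long (median 108 kb), and 4 of them held several listed genes: the Hoxa, Hoxb and Hoxc clusters and the Hoxd cluster with Evx2. Loci on the chromosome of a library's own viewpoint were left out, so Nkx2-5 on chromosome 17 was not counted from the Six3 and Six2 viewpoints (43 loci), and Otx1 and the Hoxb cluster on chromosome 11 were not counted from Gria1 (42 loci). The name of the set comes from textbook knowledge of these genes. The files hold contacts and no Polycomb binding or histone mark, so that name could not be checked in these cells.

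Polycomb group proteins form complexes that modify histones and keep developmental genes silent until a lineage needs them. Their targets in embryonic stem cells are typically promoters in CpG islands, stretches rich in CG dinucleotides, and include the Hox clusters and many homeobox, Pax, Sox and forkhead genes. Such targets are known to meet in the nucleus over long distances and between chromosomes. Poised enhancers, among them the enhancers of Six3 and Sox1 used in the study (PE Six3 and PE Sox1), are distal elements that carry Polycomb marks in stem cells and act later, in neural progenitors.

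Contacts were measured by 4C-seq, in which crosslinked chromatin is cut, ligated and amplified from 1 chosen fragment, the viewpoint, so that reads count the fragments ligated to it. The series lists 28 samples. The 13 libraries analysed, 1 per condition and all from the E14Tg2a line, comprised 9 from embryonic stem cells (ESC) and 4 from anterior neural progenitor cells (AntNPC) after 5 days of differentiation. The ESC carry a 2i+LIF label while the culture protocol names serum and LIF. PE Six3 and the Six2 promoter were each profiled in wild type (WT) ESC and in ESC lacking the domain boundary between Six3 and Six2 (del36). The insertion site near Gria1 was profiled in ESC, and the Gata6 promoter in AntNPC, each in WT and with 1 of 3 knock-ins from PE Sox1 in the domain of that gene: TFBS, CGI or TFBS+CGI. The remaining ESC library is labelled as a Gata6 insertion viewpoint with the CGI knock-in. Its tallest fragment, with 83.1% of its reads, was that of the Gata6 promoter libraries, so it is called the library labelled Gata6 insertion viewpoint. The labels do not say whether a knock-in or deletion line is 1 clone. The reads come from DNA, so cell identity could not be checked against marker gene expression.

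Libraries held 1023252 to 7730539 reads, of which 1.14% to 17.2% lay on other chromosomes than the viewpoint, on 1458 to 14030 covered fragments (fragments with at least 1 read). Between 32.6% and 63.3% of these off-chromosome fragments carried 1 read. The loci held 334 covered fragments counted library by library, or 248 different ones with a median length of 364 bp, and 30.5% of the 334 carried 1 read. Of the different fragments 65 (26.2%) were seen in more than 1 library, and 4 were seen from more than 1 of the 4 viewpoint fragments. Each condition has 1 library, so conditions could not be tested against each other. The 95% intervals below cover counting error only. They are exact Poisson or conditional intervals, except that of PE Six3 against the mean of all other ESC viewpoints. That interval is symmetric about its value on the log2 scale. For the others, an interval beside a mean of log2 values is that of the summed counts. Since PCR reads without molecular identifiers are not independent molecules, covered fragments rather than reads are the main measure.

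The promoters of the listed genes were CG-rich as a group. RefSeq promoter sequences (GRCm38.p6, 250 bases before to 50 after the start) were at hand for 38 of the 52 genes. For a listed gene with several promoters, that with the most CG was counted. Their median was 22.5 CG dinucleotides per 300 bases, with a range of 6 to 45, against 15 over 17274 protein-coding genes. At least 15 CG were present in 28 of the 38 (73.7%), against 50.6% of all, and the median GC content was 63.8% against 57.3%. An off-chromosome covered fragment overlapped the promoter of 3 of the 38 genes (7.89%), each in 1 library, where over all 13 libraries 3.29% of the 17274 genes had such an overlap. Of the 3, 2 lay wholly inside a fragment contacted from the Six2 promoter in del36 ESC, and they are shown because they place an interchromosomal contact at a start site. The Pax6 promoter shown, 1 of 2 at hand for this eye and forebrain regulator, is at chr2:105668646-105668945 on the plus strand and has 18 CG. The Wnt8b promoter, of a forebrain Wnt ligand, is at chr19:44493222-44493521 on the plus strand and has 6 CG. That is the lowest count of the set, which the Lhx9 promoter and an Otx2 promoter also have. Otx2 entered the median above with another promoter, of 16 CG. Capitals mark every CG, a motif that reads the same on both strands.
Pax6 promoter: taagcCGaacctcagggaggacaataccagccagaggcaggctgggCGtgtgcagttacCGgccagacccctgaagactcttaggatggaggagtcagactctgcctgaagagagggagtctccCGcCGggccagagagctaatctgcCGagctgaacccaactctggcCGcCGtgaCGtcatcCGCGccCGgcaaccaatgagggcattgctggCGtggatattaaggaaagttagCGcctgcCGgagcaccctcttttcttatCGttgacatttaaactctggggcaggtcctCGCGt
Wnt8b promoter: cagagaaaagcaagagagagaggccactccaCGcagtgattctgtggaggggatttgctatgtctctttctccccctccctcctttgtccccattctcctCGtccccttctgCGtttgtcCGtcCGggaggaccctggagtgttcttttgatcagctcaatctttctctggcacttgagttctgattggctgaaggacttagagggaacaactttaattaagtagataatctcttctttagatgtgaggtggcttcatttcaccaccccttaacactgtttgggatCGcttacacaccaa
The Pax6 fragment (1017 bp) carried 11 reads and the Wnt8b fragment (2398 bp) carried 2 reads. The third promoter, of Pax9, overlapped its 1-read fragment in Gata6 promoter WT AntNPC by 1 bp.

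Over all 13 libraries the loci were contacted about as often as other gene regions of the same length. For each locus the expected number of covered fragments was the mean over windows of that length centred on every other protein-coding gene off the viewpoint chromosome (19771 to 20956 windows). The 334 covered fragments stood against 301 expected, a ratio of 1.11 (95% interval 0.99 to 1.23). Viewpoints differed around this value, as the plot of observed over expected fragments by library shows.

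**Figure D1:**
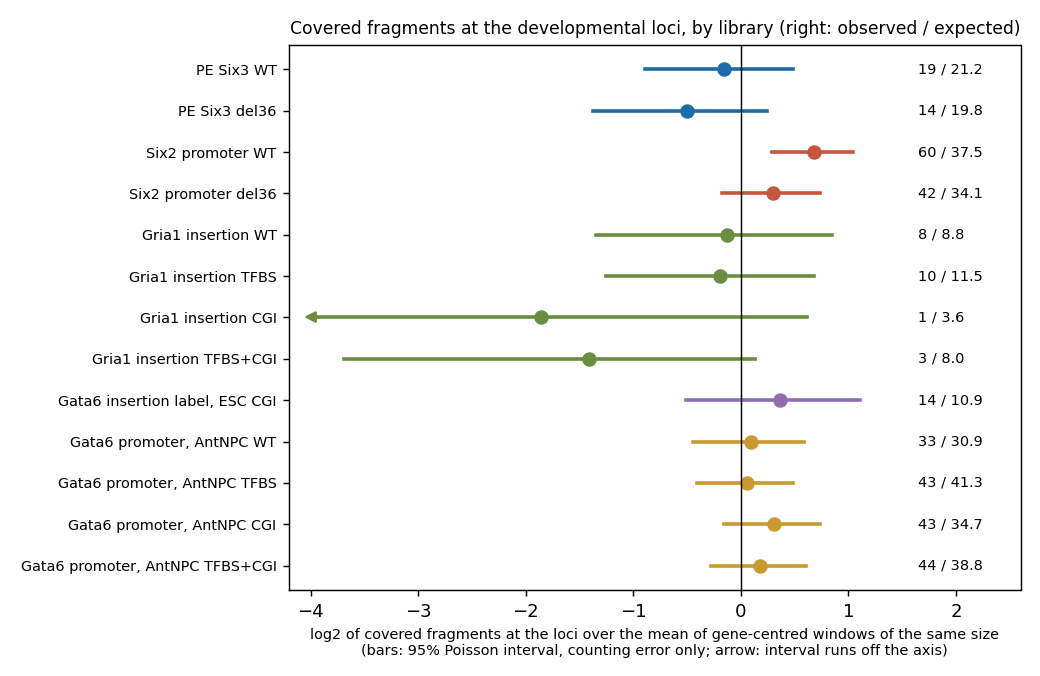
Points give log2 of covered fragments at the loci over the mean of same-size gene-centred windows for each of the 13 libraries, bars the 95% Poisson interval, and the right margin the observed and expected counts. Six2 promoter WT (60 against 37.5) is the library whose whole bar lies above 0, and the PE Six3 and Gria1 libraries all have their points below 0.

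From the Six2 promoter in ESC the loci had more covered fragments than same-size gene windows. Six2 is a homeobox gene of the kidney and head. In WT 60 fragments were covered against 37.5 expected, which is 0.68 on the log2 scale (0.29 to 1.04). In del36 there were 42 against 34.1, or 0.30 (-0.17 to 0.73), an interval that includes 0. Both Six2 libraries together had 102 against 71.6, a ratio of 1.42 (1.16 to 1.73). When fragments of 1 or 2 reads were dropped, the mean of both libraries was 0.30 on the log2 scale. The interval of their summed count, -0.13 to 0.70, included 0. With reads in place of fragments the mean turned to -0.78, a value without an interval. The del36 library differed from WT by -0.38 (-0.98 to 0.21) on the log2 scale, so no difference was detectable at this depth.

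From PE Six3, the poised enhancer on the same chromosome as Six2, no excess was seen. The WT library covered 19 fragments against 21.2 expected, or -0.16 on the log2 scale (-0.89 to 0.49), and del36 covered 14 against 19.8, or -0.50 (-1.37 to 0.24). Together they had 33 against 41.0, a ratio of 0.81 (0.55 to 1.13). The difference of PE Six3 from the Six2 promoter was -0.82 (-1.44 to -0.24), averaged over both genotypes on the log2 scale. Of the differences given here between viewpoints, cell states and genotypes, this is the one whose interval excluded 0. With fragments of at least 3 reads it was -0.44 (-1.32 to 0.39), and with reads in place of fragments it turned to 1.83, a value without an interval. Against the mean of all other ESC viewpoints the difference of PE Six3 was -0.31 (-0.95 to 0.32), and del36 differed from WT by -0.35 (-1.45 to 0.73).

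The Gria1 insertion site, in the domain of a glutamate receptor gene, contacted the loci no more than other gene regions. The libraries covered 8 fragments in the WT library against 8.78 expected, and with the TFBS knock-in 10 against 11.5. With the CGI knock-in 1 was covered against 3.63, and with TFBS+CGI 3 against 8.01. The sum of 22 against 31.9 gives a ratio of 0.69 (0.43 to 1.04). The mean of the 3 knock-ins differed from WT by -1.03 on the log2 scale. Their summed counts differed from WT by -0.59 (-1.94 to 0.87), which at these counts does not separate them. The CGI library had the fewest off-chromosome fragments of all, 1458, and the part of that depth in its value was not tested.

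The Gata6 promoter in AntNPC, the start of an endoderm and heart GATA factor, gave values near those of other genes. WT covered 33 fragments against 30.9 expected, TFBS 43 against 41.3, CGI 43 against 34.7 and TFBS+CGI 44 against 38.8. On the log2 scale these are 0.09 (-0.44 to 0.58), 0.06 (-0.41 to 0.49), 0.31 (-0.16 to 0.74) and 0.18 (-0.28 to 0.61). All are above 0 by less than their counting error, and the pooled ratio was 1.12 (0.95 to 1.30). With fragments of at least 3 reads the CGI library was at 0.62 (0.06 to 1.12), an interval above 0. In that setting WT was at -0.18 (-0.99 to 0.52), TFBS at -0.0033 (-0.68 to 0.60) and TFBS+CGI at 0.35 (-0.26 to 0.90). The knock-ins differed from WT by 0.09 (-0.48 to 0.68). The ESC library labelled Gata6 insertion viewpoint covered 14 fragments against 10.9, or 0.37 (-0.51 to 1.11). Set against the AntNPC library with the same CGI knock-in, ESC minus AntNPC was 0.06 (-0.93 to 0.96), so the cell states were not distinguishable.

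Genes were also counted in place of fragments. A gene was called contacted when the 100-kb window centred on its midpoint held at least 1 covered fragment. From the Six2 promoter 30 of 51 listed genes were called in WT, where 44% of all protein-coding genes were, and 26 of 51 in del36, where 41.8% were. From PE Six3 the counts were 15 of 51 in WT against 28.8% of all genes, and 9 of 51 in del36 against 28.2%. These shares were not tested against those of all genes. From Gria1 they numbered 5 of 48 in WT (14% of all genes), 4 of 48 with TFBS (17.6%), 0 of 48 with CGI (6.14%) and 3 of 48 with TFBS+CGI (13%). A count of 0 of 48 allows up to 3 counts. From the Gata6 promoter in AntNPC they numbered 22 of 52 in WT (38.4% of all genes), 32 of 52 with TFBS (47.6%), 30 of 52 with CGI (42.3%) and 26 of 52 with TFBS+CGI (45.5%), and in the ESC library labelled Gata6 insertion viewpoint 11 of 52 (15.8%). Listed genes have short spans, a median of 6.34 kb against 17.3 kb for all genes, so windows of fixed length rather than gene bodies were compared.

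**Figure D2:**
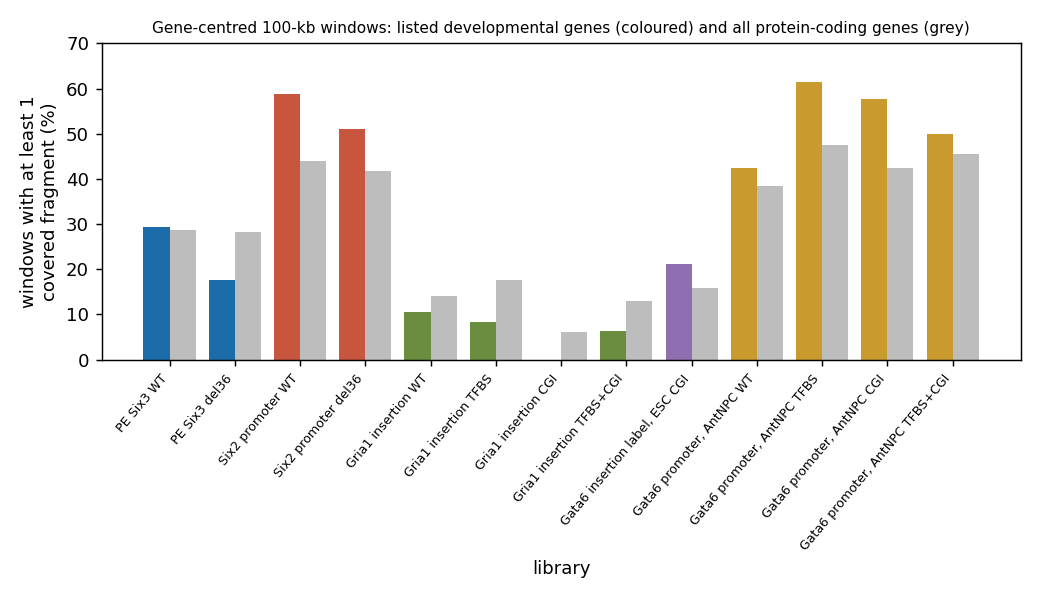
Bars give the percentage of 100-kb gene-centred windows with at least 1 covered fragment in each of the 13 libraries, coloured for the listed developmental genes and grey for all protein-coding genes. The coloured bar is the taller in both Six2 promoter libraries and in the 4 AntNPC libraries, and the shorter in all 4 Gria1 libraries.

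Other gene lists were counted in the same way. From the Six2 promoter the listed genes were called in 54.9% of gene and library pairs (56 of 102), a list of 60 other developmental regulators in 50.0% (58 of 116), 17 pluripotency genes in 66.7% (20 of 30), 30 housekeeping genes in 48.2% (27 of 56) and 25 tissue-restricted genes in 38.0% (19 of 50), beside 42.9% of all genes. The pluripotency genes were highest in this sum through del36 alone, where 12 of 15 were called (80%) beside 26 of 51 listed genes (51.0%). In WT 8 of 15 were called (53.3%), below the 58.8% of the listed genes. Differences between the lists were not tested. From PE Six3 the listed genes were at 23.5%, the other regulators at 28.4%, the pluripotency genes at 20.0%, the housekeeping genes at 37.5% and the tissue-restricted genes at 34.0%, beside 28.5% of all genes. From Gria1 the listed genes were at 6.25%, and the other lists were low too, at 9.55%, 6.25%, 8.93% and 6.82% in the same order, beside 12.7%. Every list counted thus lay below all genes from Gria1. From Gata6 in AntNPC the listed genes were at 52.9% and the other lists at 47.9%, 51.6%, 53.4% and 43.0%, beside 43.4% of all genes. Across all genes with a promoter sequence, those with at least 15 CG were called more often than the rest from the Six2 promoter (48.2% against 39.1% in WT and 45.3% against 38.3% in del36) and less often from Gria1 (11.8% against 16.8% in WT and 14.3% against 21.2% in TFBS). From PE Six3 the shares were 27.8% against 30.8% in WT and 28.8% against 27.8% in del36. From Gata6 in AntNPC the CG-rich genes were called more often in each library (40.5% against 35.9% in WT). In the library labelled Gata6 insertion viewpoint they were at 15.7% against 16.2%. Promoter CG content thus moved with the difference between Six2 and Gria1, but in no single direction from PE Six3. Its part in the result at the loci was not tested.

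Fragments were also counted in rings of distance from the listed genes, without a test between viewpoints. From the Six2 promoter the first 10 kb outside the gene spans held 33 fragments against 8.70 expected from the off-chromosome mean per base, a ratio of 3.80 (2.61 to 5.33), where the same ring around all protein-coding genes had 1.40. From Gata6 in AntNPC that ring held 42 against 19.5, a ratio of 2.15 (1.55 to 2.91), where all genes had 1.19. From PE Six3 it held 9 against 5.95, or 1.51 (0.69 to 2.87), beside 1.25 for all genes. From Gria1 the spans of the listed genes held 0 fragments of 6.49 expected and the first ring 1 of 5.68. Counts next to the genes thus lay above the off-chromosome mean from Six2 and below it from Gria1. In the Six2 libraries the ratio remained above that of all genes out to the ring at 200 to 400 kb. There it was 1.23 (1.06 to 1.43) against 0.68. These rings are not alike, since that of all genes lies that far from every gene. The ring around the listed genes can hold other genes, and the part of this in the gap was not tested.

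**Figure D3:**
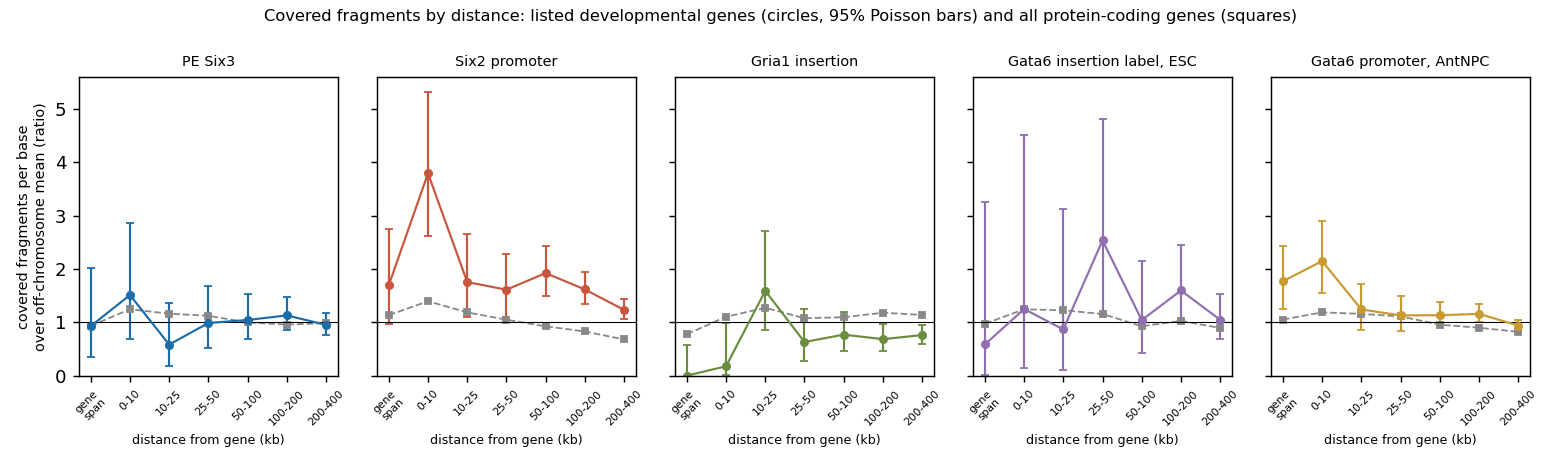
Each panel gives, for 1 viewpoint, covered fragments per base over the off-chromosome mean (y axis, ratio) in rings of distance from the gene (x axis, kb), as coloured circles with 95% Poisson bars for the listed genes and grey squares for all protein-coding genes. The Six2 promoter panel peaks at 3.80 in the ring of 0 to 10 kb, and the Gria1 panel is at 0 in the gene spans.

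This pattern prompted a narrower window, gene span with 10 kb on each side, which was chosen after the distances were seen. Against gene windows of the same size the Six2 promoter then had 49 fragments against 26.0, a ratio of 1.89 (1.40 to 2.49), with 1.97 in WT (27 against 13.7) and 1.80 in del36 (22 against 12.2). The outer part of the loci, 10 to 50 kb away, had 53 against 45.6, a ratio of 1.16 (0.87 to 1.52). The Gata6 promoter in AntNPC had 79 against 53.2, or 1.48 (1.18 to 1.85), but many of these were the same fragments in several libraries. With each different fragment counted once per viewpoint the Six2 value was 38 against 21.9, or 1.73 (1.23 to 2.38), and the Gata6 value was 49 against 39.8, or 1.23 (0.91 to 1.63). Since the 10-kb window was chosen from the same fragments, these values describe the near-gene counts and are no independent support for them. PE Six3 had 15 against 14.7, and Gria1 had 1 against 11.3, a ratio of 0.088 (0.0022 to 0.49). The Six2 near-gene fragments were spread over 24 genes, led by the limb and heart T-box gene Tbx5 with 5, and then the LIM homeobox gene Lmx1b, the Pax genes Pax2, Pax6 and Pax7, and Wnt8b with 3 each. These counts are not scaled to length, and long genes have longer windows. Tbx5, Lmx1b, Pax2 and Pax7 span 80.2 to 96.5 kb, where the median listed gene spans 6.34 kb. The 5 at Tbx5 carried 8 reads in all.

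The loci were next counted by gene family. The 5 Pax genes, paired-box regulators of kidney, neural tube, eye and muscle, had 21 fragments against 10.4 expected from the Six2 promoter, a ratio of 2.03 (1.26 to 3.10), and 31 against 20.7 from Gata6 in AntNPC, with an interval of the ratio from 1.02 to 2.13. They had 6 against 5.94 from PE Six3 and 4 against 4.83 from Gria1. Over all libraries the Pax loci stood at 63 against 43.4, or 1.45 (1.12 to 1.86), the highest of the 7 families. The Wnt ligand genes Wnt1 and Wnt8b had 9 against 2.79 from Six2, or 3.22 (1.47 to 6.12), and 16 against 11.7 over all libraries, or 1.37 (0.78 to 2.23). The other families were near expectation over all libraries. The Hox clusters, the body-axis genes best known as Polycomb targets, had 48 against 42.4, with a ratio of 1.13, and 15 against 10.5 from Six2. The LIM homeobox, forkhead with GATA and T-box, and Sox with Zic and bHLH groups were at 1.12, 1.07 and 1.03, and the remaining homeobox genes at 0.95 (0.76 to 1.17). Differences between families were not tested, and their intervals from Six2 overlapped. The family counts include fragments repeated between libraries, and the intervals treat each repeat as a separate count. With each different fragment counted once, all loci from Gata6 in AntNPC had 112 against 110, or 1.02 (0.84 to 1.23). From the Six2 promoter they had 87 against 60.6, or 1.44 (1.15 to 1.77). Families were not counted in this way.

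Among the Pax loci, Pax7 had the most fragments of any locus in 1 library. Pax7, a regulator of neural crest and muscle progenitors, had 5 in Six2 promoter WT and 2 in Six2 promoter del36, and none from PE Six3 or Gria1. Of the 5, 3 lay in the gene, and they carried 1, 2 and 8 reads. As many fragments as the 5 were found in 2.68% of same-size gene windows. Pax7 was picked for this count among the loci, so that share is no independent support. Pax6 had 3 fragments in Six2 promoter WT and 2 in del36, and both libraries held the same intragenic fragment (chr2:105689171-105691519), with 670 reads in WT and 2 in del36. So a fragment can recur between libraries with very different read counts. Pax2, a kidney and midbrain regulator, was covered in 11 of the 13 libraries, the most of any locus, with 1 to 4 fragments in each of them and none in the Gria1 CGI and TFBS+CGI libraries. Its intragenic fragment chr19:44753222-44753316 was seen from both PE Six3 and the Six2 promoter, with 847 reads in PE Six3 del36 and 1 read each in PE Six3 WT and Six2 promoter WT. PE Six3 and the Six2 promoter lie near each other on chromosome 17, so these 2 viewpoints are not distant from each other.

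From the Six2 promoter the highest densities after scaling to length were at Olig2, Wnt1, Dlx1, Pax6 and Pax7. Olig2, a bHLH regulator of motor neurons and oligodendrocytes, had 3 fragments in WT and 2 in del36, 15.4 to 40.3 kb from the gene, and the 2 in del36 were both among the WT fragments. Wnt1 had 2 in WT and 3 in del36. Dlx1, a forebrain homeobox gene, had 4 in WT, a count reached by 1.33% of same-size windows, and 1 in del36. Dlx1 was picked for its density, so that share is no independent support. The fragment shared by both Dlx1 libraries lay 6.61 kb from the gene and carried 4 and 3 reads. WT and del36 shared 22 loci, 73.3% of the 30 covered in WT and 81.5% of the 27 in del36, and 15 identical fragments. Another of the 13 libraries also covered 26.7% of the fragments at the loci in WT and 35.7% in del36. Over all off-chromosome fragments of these libraries the shares were 28.6% and 31.0%, so recurrence at the loci was near that of all fragments.

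From PE Six3 the highest densities were at Nkx6-1, Gata4, En2, Nkx2-2, Lhx9, Pax2, the Hoxd cluster, Lmx1b, Pax3 and Neurog1, with 1 to 4 fragments each. Nkx6-1, a homeobox regulator of ventral neural tube and pancreas, had 1 fragment in WT and 2 in del36, and the fragment 1.48 kb from the gene carried 1 read in WT and 626 in del36. Gata4, a heart and endoderm factor, had 2 fragments in each library at different places, the closest 1.56 kb from the gene with 125 reads in WT. En2, a midbrain-hindbrain homeobox gene, had 1 in each, 48.3 and 17.1 kb away. WT and del36 shared 7 loci, 50.0% of the 14 covered in WT and 58.3% of the 12 in del36, and 2 identical fragments. Of the fragments at the loci 15.8% in WT and 21.4% in del36 were also covered in another of the 13 libraries, beside 11.8% and 13.2% of all off-chromosome fragments of these libraries. Recurrence was thus low for the loci and for all fragments of these libraries.

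The Gria1 insertion site had 7 of its 22 fragment counts at Zic2, a zinc finger gene of the forebrain, on chromosome 14. The TFBS library held 4 of them, WT held 2, TFBS+CGI held 1 and CGI none. Counts as high as these were found in 1.71% of same-size gene windows in WT and in 0.16% in TFBS. Zic2 was picked as the densest locus of this viewpoint, so these shares are no independent support. The 7 counts come from 4 different fragments. Of these, 3 lay close together within chr14:122456925-122459608, 15.9 to 18.4 kb from the gene, and the remaining fragment lay 48.1 kb away. The 3 were seen in 2 of these libraries each, among them chr14:122457645-122457880 with 10 reads in TFBS and 170 reads in TFBS+CGI. They are not separate places, and the window shares above count them as separate fragments. Zic2 was not covered from PE Six3 or the Six2 promoter. The next Gria1 loci, Cdx2, Tbx3, the Hoxa cluster and Pax2, had 2 fragments each over the 4 libraries.

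The Gata6 promoter in AntNPC had its highest densities at Olig2, Lmx1b, the Hoxd cluster, Pax9 and Wnt1. The Hoxd cluster with Evx2 had 3 fragments in each of the 4 libraries, and those of TFBS, CGI and TFBS+CGI were the same 3. Of the 3 in WT, 1 was among these, and the other 2 lay next to each other with 1 and 21 reads. The fragment 0.38 kb from Hoxd9 was covered in all 4, with 3 reads in WT, 76 with TFBS, 176 with CGI and 5 with TFBS+CGI. Lmx1b, a LIM homeobox regulator of limb and midbrain, had 2, 2, 4 and 3, and Olig2 had 1, 1, 2 and 3 in WT, TFBS, CGI and TFBS+CGI. The library labelled Gata6 insertion viewpoint also had its highest density at Lmx1b, with 2 fragments, 1 of which was seen in the AntNPC CGI and TFBS+CGI libraries. Identical fragments were shared unequally between the AntNPC libraries, from 4 between WT (33 fragments) and CGI (43) to 23 between CGI and TFBS+CGI (44). The share of fragments at the loci that another of the 13 libraries also covered was lowest in WT, at 48.5% beside 44.4% of all its off-chromosome fragments, and highest in TFBS+CGI, at 72.7% beside 54.8%. The TFBS library had 48.8% beside 38.1%, and the CGI library 58.1% beside 45.3%. Whether libraries of 1 viewpoint exchanged reads was not tested.

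**Figure D4:**
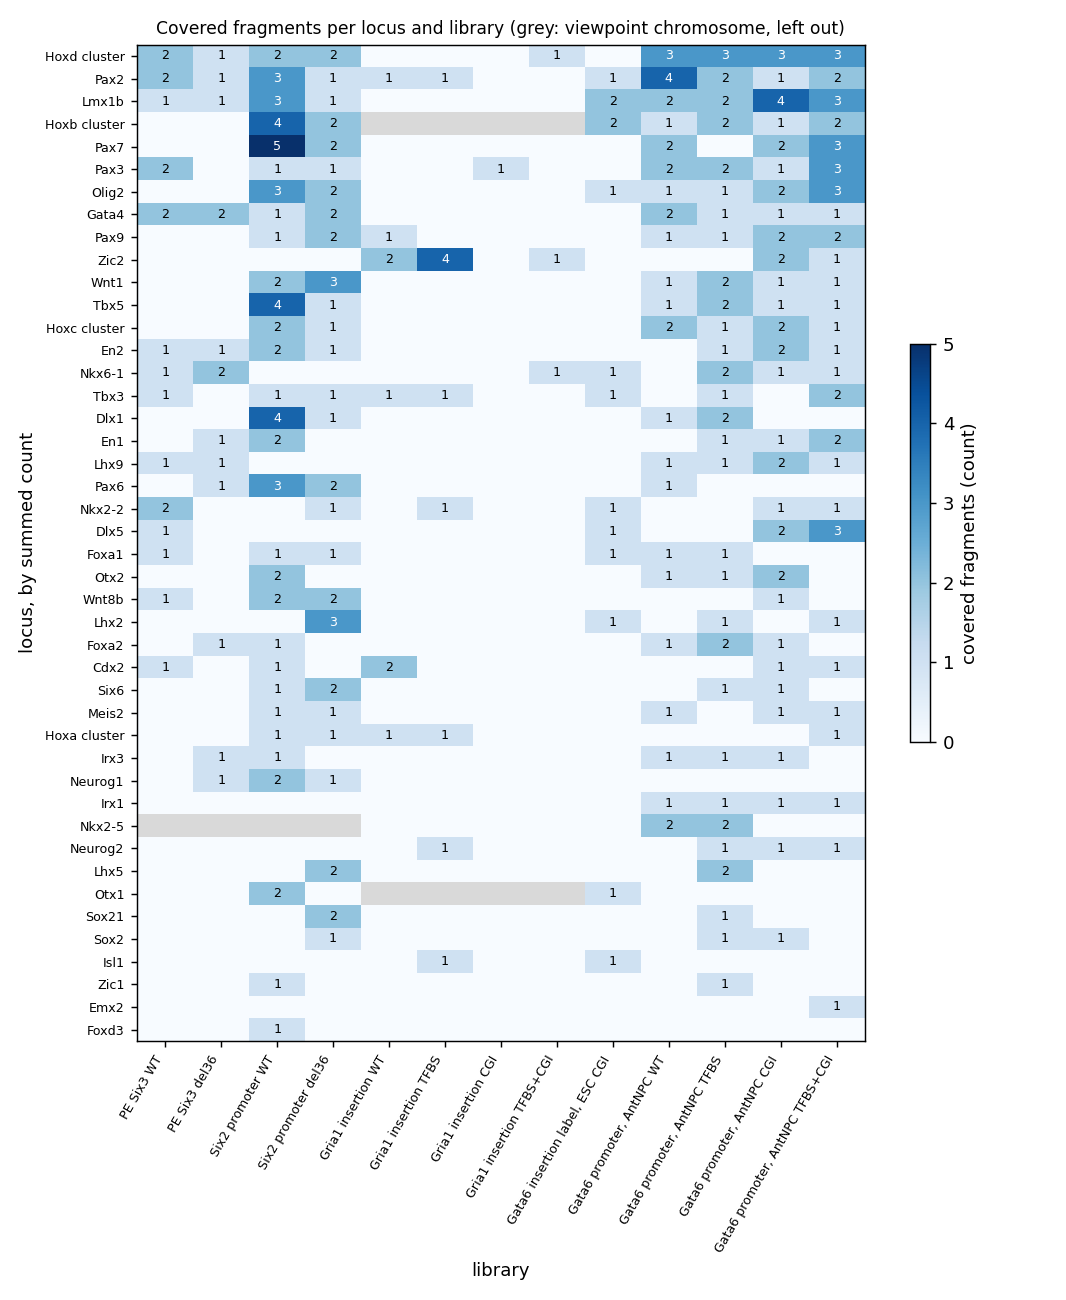
Cells give the covered fragments at each of the 44 loci (rows, ordered by their sum) in each of the 13 libraries (columns), with blank cells for 0 and grey cells for loci on the viewpoint chromosome. The Hoxd cluster has 3 in every AntNPC library, Pax7 has 5 in Six2 promoter WT, and Zic2 has 4 in Gria1 TFBS.

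Over all libraries each locus was covered at least once, in 1 to 11 libraries (median 5), and 26 loci were above and 18 below their expected count. The highest ratio was at Olig2 with 13 fragments against 5.35, or 2.43 (1.29 to 4.16), then Lmx1b with 19 against 9.37, or 2.03, Pax2 with 19 against 9.95, or 1.91, Wnt1 with 10 against 5.40, or 1.85, Zic2 with 10 against 5.45, or 1.83, and the Hoxd cluster with 20 against 11.0, or 1.82. These loci were picked for their height among 44, and their counts include fragments repeated between libraries. The lowest ratios were at the forebrain gene Emx2 and the neural crest gene Foxd3 with 1 fragment each, 0.18 and 0.19. Meis2, the longest locus at 306 kb, had 5 against 15.9, or 0.32 (0.10 to 0.74).

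Read counts at the loci were uneven between fragments. In PE Six3 WT the loci held 3865 reads against 1842 expected, and 3620 of them (93.7%) lay on 1 fragment 4.10 kb from Dlx5, a forebrain and skeletal homeobox gene, at chr6:6886091-6886246. Without it 245 reads were left. That fragment was covered in no other of the 13 libraries. In PE Six3 del36 the loci held 2134 reads against 1042, with 847 on the Pax2 fragment, and 1287 without it. The Six2 libraries went the other way, with 2128 reads against 3503 in WT and 1748 against 3131 in del36, although their fragment counts were above expectation. Their tallest fragments were near Six6, an eye homeobox gene (678 reads, 0.66 kb away), in Pax6 (670 reads) and near Hoxd1 (350 reads). In the AntNPC WT library 999 of 1663 reads lay on 1 fragment in Pax3, a neural crest and muscle regulator. The direction by reads therefore differed from that by fragments for both PE Six3 and the Six2 promoter. Expected reads are means over windows, which tall fragments raise. In Six2 promoter WT the 718723 off-chromosome reads lay on 11170 fragments with a median of 3 reads. No interval was computed for reads, so these directions do not establish an excess or deficit of reads at the loci.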

How the data were processed

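The 13 libraries were grouped by their titles. Each file lists restriction fragments with RPM values (reads scaled to library depth) as the authors deposited them. The submitters' processing notes name HISAT2 and mm10, without a version. All values were whole multiples of the smallest one (tolerance 0.1), so reads were recovered by division. A count test on them was not run, since each condition has 1 library. The tallest fragment of a library served as its viewpoint. Gene spans came from RefSeq (GRCm38.p6). A fragment was counted where its midpoint lay, and expected counts are means over windows of every other protein-coding gene. Named loci were the 10 densest for PE Six3 and the 5 densest for each other viewpoint in fragments per 100 kb. Loci with the highest or lowest ratio over all libraries and the tallest fragments were named after their values were seen. Members and gene lists were chosen with earlier results of these data known. Alternatives covered what was counted, the flank, the background, recurring fragments and the loci. Scripts used Python 3.11.15, numpy 2.4.6, pandas 2.3.3, scipy 1.17.1 and matplotlib 3.10.9, and the counting was tested on simulated data.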

Additional observations from a re-analysis of the deposited data

How the results depend on the processing

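Of 150 values of the main results recomputed under the alternatives, 132 stayed within the counting interval of the main value. With reads in place of fragments the mean log2 enrichment was 1.05 for PE Six3 (fragments -0.33), -0.78 for the Six2 promoter (fragments 0.49; WT alone -0.72), -3.68 for Gria1 (fragments -0.90) and 0.59 for Gata6 in AntNPC (fragments 0.16), so PE Six3 minus Six2 turned to 1.83 and PE Six3 minus the other ESC viewpoints was 2.17. These read values have no counting interval, and their expected values are means that tall fragments raise. A single fragment held 93.7% of the PE Six3 WT reads at the loci, while del36 had 1287 reads without its tallest fragment against 1042 expected. With all off-chromosome fragments per base as background the Six2 promoter was at 1.01 and Gata6 in AntNPC at 0.55. Without its locus with most fragments, Zic2, Gria1 was at -1.31. With 25 kb flanks ESC minus AntNPC was -0.96. With 10 kb flanks, chosen after seeing the data, it was -1.04, Six2 was at 0.91, Gria1 at -1.45 in the 1 library with a fragment and Gata6 in AntNPC at 0.57. With each different fragment also counted once, Six2 was at 0.79 and Gria1 at -3.09, and PE Six3 minus Six2 was -0.91 with an interval of -1.94 to 0.03. With fragments of at least 3 reads the Six2 promoter was at 0.30 (-0.13 to 0.70). The cause of these changes was not tested. Gene windows called numbered 213 of 656 (32.5%, all genes 29.7%), 21 with at least 3 fragments required (3.20%, all genes 1.96%) and 135 with fragments of at least 3 reads (20.6%, all genes 17.4%). Libraries without a count were left out of viewpoint means, and Gria1 knock-ins minus WT had no value at 10 kb. No paired analysis was possible because each condition has 1 library and the labels give no replicate numbers. Counts of 1 to 60 fragments per library limit what could be seen.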

Other observations

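The loci left out for lying on a viewpoint's own chromosome were covered in 6 of 12 locus and library pairs. These pairs all came from the PE Six3, Six2 promoter and Gria1 viewpoints. For loci on other chromosomes these viewpoints covered 26 of 86, 57 of 86 and 17 of 168 pairs, in that order. A share over other genes on the viewpoint chromosome is not given. Nkx2-5, a heart homeobox gene 58.6 Mb from PE Six3 and 58.8 Mb from the Six2 promoter, had 0 fragments in PE Six3 WT, 1 in PE Six3 del36, 1 in Six2 promoter WT and 2 in Six2 promoter del36. Otx1, a forebrain homeobox gene 34.9 Mb from the Gria1 insertion site, had 1 fragment with 22 reads in TFBS and none in the other 3 libraries. The Hoxb cluster, 39.4 Mb from Gria1, had 1 fragment with 498 reads in CGI, 1 with 4 reads in TFBS+CGI and none in WT or TFBS.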
